A study of Mus musculus with 17 samples.

Results

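BAF complexes are large ATP-driven machines that move and evict nucleosomes. The genes described here are 10 BAF subunits, Smarca4, Smarca2, Smarcc1, Smarcc2, Smarcd1, Smarcd3, Arid1a, Arid1b, Actl6a and Smarce1, out of 23891 gene symbols in the RNA-seq tables of mouse stem cell cultures. They were chosen by gene symbol, and each is given by the RefSeq transcript with the highest mean FPKM over the 17 samples. FPKM counts sequenced fragments per kilobase of transcript, scaled for each library, here with upper-quartile and GC normalization, so levels may be compared between genes. The 10 genes are listed with 15 transcripts in all. Smarca4, Smarca2 and Smarcc2 have several, and for these the sum over transcripts is given as well.

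The study followed the spontaneous conversion of cultured spermatogonial stem and progenitor cells (SSCs) into multipotent adult spermatogonial-derived stem cells (MASCs), with pluripotent and somatic cells for comparison. RNA was sequenced from 4 SSC lines, 2 of them Oct4-GFP, 1 C57Bl/6J and 1 129mix, expanded on MEF feeder cells with GDNF, bFGF and EGF and replated on gelatin before collection to remove feeders. The 6 MASC lines comprised 2 Oct4-GFP, 2 129mix and 2 Gt(ROSA26)Sor-lacZ lines, each begun from picked colonies with the look of embryonic stem cells. The 2 embryonic stem cell (ESC) lines were Oct4-GFP and 129mix. The 2 induced pluripotent stem (iPS) lines, 129mix, came from doxycycline-treated fibroblasts of tetO-4F2A x H3.3B-HA embryos, which carry the reprogramming factors in an inducible cassette. MASCs, ESCs and iPS cells were grown with LIF on MEF feeders. The 2 haematopoietic stem and progenitor (HSC) cultures were lineage-depleted bone marrow cells of C57Bl/6J mice on E4ORF1-HUVEC endothelial feeders, and the 1 mouse embryonic fibroblast (MEF) sample was from H3.3B-HA embryos of 129mix strain. Cell type and culture medium changed together between SSCs and the lines in ESC medium, so the contributions of cell type and medium cannot be told apart. Fewer cells that express a gene and less RNA per cell cannot be told apart in such bulk samples either.

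Each BAF complex is built around an ATPase, either BRG1 (encoded by Smarca4) or BRM (Smarca2). Scaffold subunits of the SMARCC family, SMARCD subunits and an ARID subunit complete its base, and many of these positions can be filled by any of several related proteins. In mouse ESCs a form called esBAF is known, which contains BRG1 and the SMARCC1 protein and largely lacks BRM and the SMARCC2 protein, whereas other tissues use the alternative subunits more.

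The defining markers of each cell type were checked first. The 6 SSC markers (Zbtb16, Gfra1, Ret, Ddx4, Dazl, Etv5) were at an FPKM of at least 1 in every SSC line, with sums of 462 to 683 FPKM against 88.9 to 159 FPKM in MASC lines. Most of the MASC sum was Etv5, which was at 81.1 to 128 FPKM in MASC lines and at 11.4 to 123 FPKM in SSC lines, and 5 of the 6 markers were called lower in MASCs and 1 higher. The 5 pluripotency markers (Pou5f1, Nanog, Sox2, Zfp42, Esrrb) summed to 1043 to 1858 FPKM in MASC, ESC and iPS lines. They summed to 7.38 to 113 FPKM in SSC lines, where the highest value was that of SSC.1. The 5 blood markers (Ptprc, Spi1, Gata2, Cd34, Itgam) were expressed in both HSC cultures. They were also at an FPKM of at least 1 in the MEF sample, with a sum of 63.2 FPKM. The 7 fibroblast markers (Col1a2, Col3a1, Col5a1, Postn, Lum, Dcn, Thbs2) summed to 5835 FPKM in the MEF sample. Their sum was over 300 FPKM in SSC.1, SSC.3, MASC.1, ESC.1 and HSC.2, and between 1.14 and 110 FPKM in the remaining 11 samples. Cufflinks coverage at 1 FPKM was between 1.26 and 3.23 reads per base. Read counts were not used here. Cufflinks gives confidence bounds for each value, but the error of a value is taken here from the spread between lines.

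The promoters of Smarcd1, Smarcd3, Smarca4 and Smarca2 are shown as 2 pairs in which 1 member fell clearly from SSCs to MASCs and its paralogue did not. Smarcc2 also fell while Smarcc1 did not pass the test. The windows of that pair, with 40 CG dinucleotides for Smarcc2 and 21 for Smarcc1, are not printed. Each sequence is the 250 bases before the RefSeq start, from the GRCm38.p6 table, written in the direction of transcription with CG dinucleotides in capitals. Each window matched the NCBIM37 (mm9) genome of the files at exactly 1 place and ends directly before the first base of the transcript that is quantified here. On mm9 the Smarcd1 window is chr15:99532468-99532717 (plus strand), the Smarcd3 window chr5:24107821-24108070 (minus strand), the Smarca4 window chr9:21420363-21420612 (plus strand) and the Smarca2 window chr19:26679400-26679649 (plus strand).
Smarcd1: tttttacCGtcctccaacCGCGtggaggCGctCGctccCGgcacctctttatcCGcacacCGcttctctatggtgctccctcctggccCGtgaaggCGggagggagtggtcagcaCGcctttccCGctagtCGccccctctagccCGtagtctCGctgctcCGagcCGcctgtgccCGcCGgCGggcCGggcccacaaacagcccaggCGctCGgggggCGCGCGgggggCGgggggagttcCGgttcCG
Smarcd3: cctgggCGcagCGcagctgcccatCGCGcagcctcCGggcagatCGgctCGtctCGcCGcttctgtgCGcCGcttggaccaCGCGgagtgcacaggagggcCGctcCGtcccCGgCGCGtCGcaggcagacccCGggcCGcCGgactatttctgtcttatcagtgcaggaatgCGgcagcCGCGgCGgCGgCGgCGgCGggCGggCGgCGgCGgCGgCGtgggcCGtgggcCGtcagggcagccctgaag
Smarca4: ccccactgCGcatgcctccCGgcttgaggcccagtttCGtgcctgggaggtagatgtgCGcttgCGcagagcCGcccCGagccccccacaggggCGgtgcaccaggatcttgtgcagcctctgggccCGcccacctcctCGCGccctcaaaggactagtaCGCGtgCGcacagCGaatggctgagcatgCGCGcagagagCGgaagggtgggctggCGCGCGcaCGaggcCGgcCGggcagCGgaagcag
Smarca2: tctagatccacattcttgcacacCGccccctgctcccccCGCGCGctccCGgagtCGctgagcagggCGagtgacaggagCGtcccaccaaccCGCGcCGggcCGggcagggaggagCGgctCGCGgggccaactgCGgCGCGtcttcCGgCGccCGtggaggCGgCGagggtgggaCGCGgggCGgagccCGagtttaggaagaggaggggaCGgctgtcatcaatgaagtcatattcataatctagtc
The 4 windows held 29, 38, 25 and 28 CG dinucleotides, in that order, against a median of 6 and an upper quartile of 16 over 32851 RefSeq promoters. The windows of the 9 members with an entry, of which Arid1a has 2, held 18 to 40, so that the members that fell and those that rose alike had CG-rich promoters. The GC box GGGCGG, read on both strands, was found once in the Smarcd1 window, 2 times in those of Smarcd3 and Smarca2 and 3 times in that of Smarca4, and occurs in 32.7% of all promoters. The octamer ATGCAAAT, the AP-1 motif TGACTCA, the E-box CACGTG and the CCAAT box, on both strands, were in none of the 9 members' windows and are found in 1.60%, 4.46%, 6.02% and 33.8% of all promoters.

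The first question was which subunits differed between SSCs and the MASCs that arise from them. Smarcd3, Smarca2 and Smarcc2 fell, and Actl6a, Arid1a and Smarcd1 rose, whereas Smarca4, Smarcc1, Arid1b and Smarce1 did not pass the test. The tests were made with limma on log2(FPKM + 1) over 32661 transcripts in the 12 SSC, MASC and ESC lines, and a call is a Benjamini-Hochberg adjusted p under 0.05. The 3 members higher and 3 lower in MASCs stand against 11.4% of all transcripts called higher and 19.5% called lower. When only the 18757 transcripts that reached 1 FPKM in 2 or more of the 12 lines were tested, 19.6% were called higher and 30.3% lower, so the 6 of 10 members called were not far above the share of expressed transcripts. The median difference of the 10 members was -0.21 log2 units, against -0.16 for expressed transcripts. Among the members, 5 had no overlap between the 6 MASC and 4 SSC lines, 2 of them higher in MASCs and 3 lower. Such a separation was found upward in 9.92% and downward in 15.4% of all transcripts. The direction of each of the 6 calls was the same in the Oct4-GFP lines alone (2 of each cell type) and in the 129mix lines alone (1 SSC and 2 MASC lines). Within these strains Smarcd3 differed by -2.02 and -2.91 log2 units, Smarca2 by -1.30 and -1.84, Smarcc2 by -0.82 and -0.69, Actl6a by 0.96 and 1.4, Arid1a by 0.83 and 1.10 and Smarcd1 by 0.31 and 0.68.

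**Figure D1:**
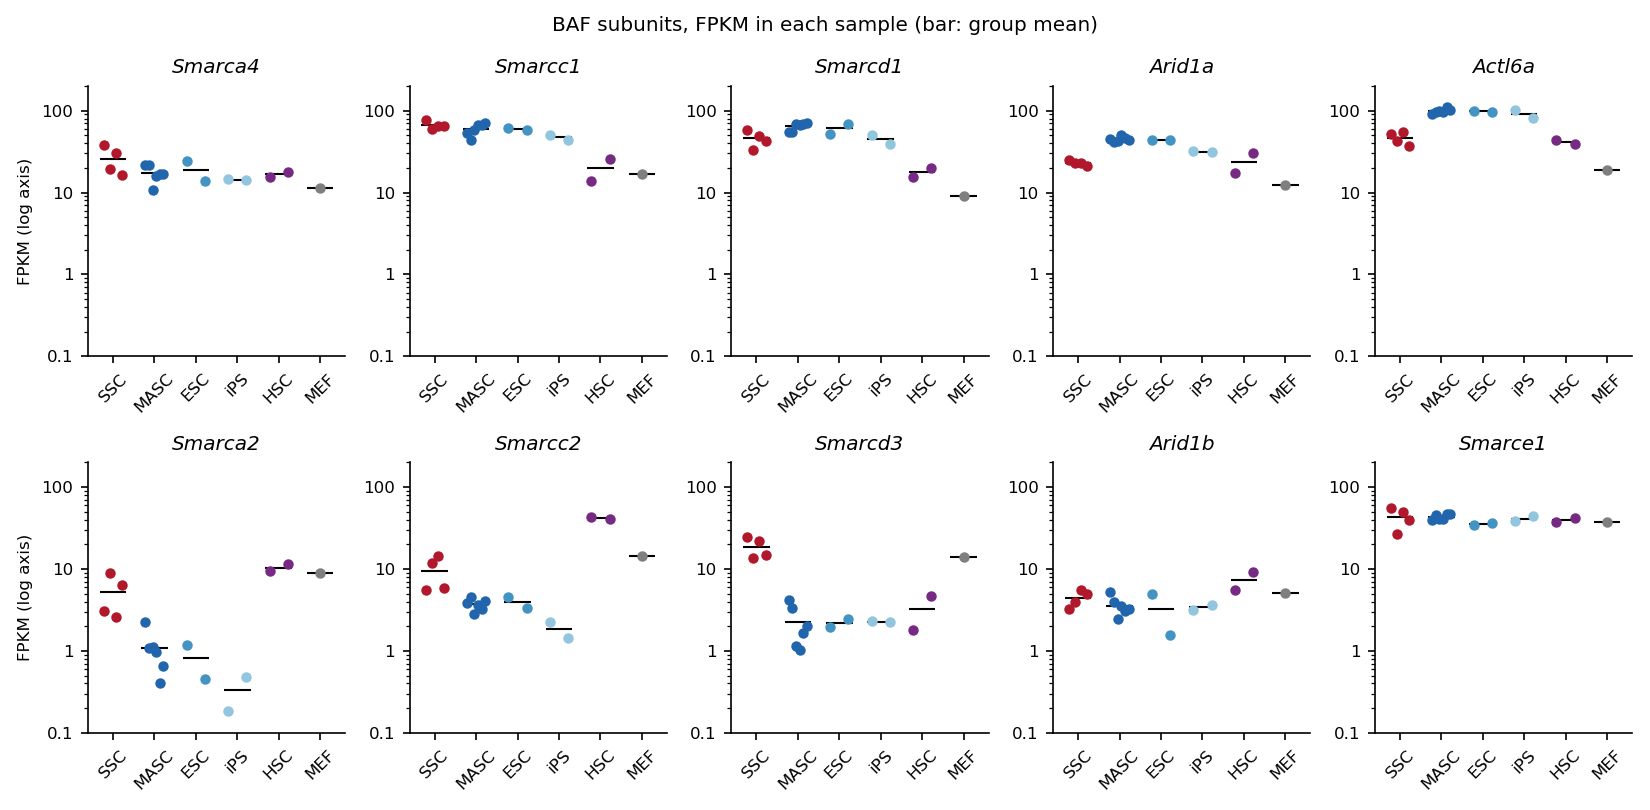
FPKM of the 10 BAF subunits on a log axis in each of the 17 samples, 1 point per sample, with a bar at the group mean. Smarca2, Smarcc2 and Smarcd3 are lower in MASC than in SSC lines without overlap, Arid1a and Actl6a are higher without overlap, and Smarce1 stays between 26.7 and 55.0 FPKM everywhere.

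Among the SMARCD subunits, which link the complex to transcription factors, Smarcd3 showed the largest change of the 10 members. Its transcript lies at chr5:24098440-24107820 on mm9 and is the form associated with heart and skeletal muscle. Smarcd3 was at 24.3 FPKM in SSC.1, 13.6 FPKM in SSC.2, 21.8 FPKM in SSC.3 and 14.6 FPKM in SSC.4. In the 6 MASC lines it was at 1.02 FPKM at the lowest, 1.82 at the median and 4.21 at the highest, so that every SSC line lay more than 3 times above every MASC line. The difference was -2.65 ± 0.30 log2 units (SE; limma adjusted p = 0.00012), a fall of 6.29-fold on the FPKM + 1 scale. Its paralogue Smarcd1 (chr15:99532718-99544426) went the other way. Smarcd1 stood at 58.5 FPKM in SSC.1, 33.2 in SSC.2, 48.8 in SSC.3 and 42.3 in SSC.4, and between 54.3 and 70.0 FPKM (median 68.2) in MASC lines. The groups overlapped, since SSC.1 lay above the 2 lowest MASC lines. The rise of 0.51 ± 0.16 log2 units passed the test narrowly (limma adjusted p = 0.035). Its call was lost when any of SSC.2, SSC.3, SSC.4, MASC.3, MASC.4, MASC.5 or MASC.6 was left out, with differences of 0.36 to 0.55 log2 units and limma adjusted p of 0.050 to 0.084, with quantile normalization (limma adjusted p = 0.074) and with a strain block (0.14).

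Of the ATPase genes, Smarca2 fell and Smarca4 did not pass the test. Smarca2 (chr19:26679650-26852811) was at 3.03 FPKM in SSC.1, 9.06 in SSC.2, 2.59 in SSC.3 and 6.29 in SSC.4. In MASC lines its level ran from 0.407 FPKM over a median of 1.02 to 2.23 FPKM, below all SSC lines, though MASC.1 was close to SSC.3. The difference was -1.51 ± 0.33 log2 units (SE; limma adjusted p = 0.0064). A shorter transcript of Smarca2 with its own start was at 0.983 to 6.61 FPKM in SSC lines and at 0.294 to 1.17 FPKM in MASC lines, with overlap, and was not tested alone. The sum of both transcripts was 4.00 to 15.7 FPKM in SSC lines and 1.19 to 3.26 FPKM in MASC lines. Smarca4 (chr9:21420613-21508674) was at 38.0 FPKM in SSC.1, 19.1 in SSC.2, 30.0 in SSC.3 and 16.6 in SSC.4, and at 10.8 to 21.6 FPKM (median 16.8) in MASC lines. Its groups overlapped and its difference was -0.52 ± 0.28 log2 units (limma adjusted p = 0.20). Cufflinks spread the reads of Smarca4 over 3 transcripts, of which the one used held between 25.5% and 48.7% of the sum in SSC and MASC lines. The sum was 39.3 to 108 FPKM in SSC lines and 42.2 to 63.4 FPKM in MASC lines, and it did not pass the test either (-0.33 ± 0.29 log2 units, limma adjusted p = 0.44).

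Both SMARCC genes encode scaffold proteins that dimerize in the complex. Smarcc1 (chr9:110034528-110142682) was abundant throughout, at 76.6 FPKM in SSC.1, 59.6 in SSC.2, 64.8 in SSC.3 and 64.9 in SSC.4, and at 44.0 to 69.7 FPKM (median 62.8) in MASC lines. The groups overlapped, and the difference of -0.16 ± 0.13 log2 units did not pass the test (limma adjusted p = 0.41). Smarcc2 (chr10:127896292-127927230) was at 5.48 FPKM in SSC.1, 11.9 in SSC.2, 14.5 in SSC.3 and 5.79 in SSC.4, and at 2.85 to 4.59 FPKM (median 3.73) in MASC lines. The groups did not overlap, although SSC.1 and SSC.4 were near the highest MASC line. Smarcc2 fell by 1.05 log2 units (SE 0.25, limma adjusted p = 0.011). With a strain block the call was lost (-0.77 ± 0.23 log2 units, limma adjusted p = 0.054). Summed over its 3 transcripts, Smarcc2 was at 8.31 to 21.5 FPKM in SSC lines and at 6.42 to 11.8 FPKM in MASC lines, with overlap, and the difference was -0.78 ± 0.27 log2 units (limma adjusted p = 0.047).

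The ARID subunits contact DNA, and a complex holds ARID1A or ARID1B. Arid1a (chr4:133234923-133309526) was at 24.8 FPKM in SSC.1, 22.6 in SSC.2, 22.8 in SSC.3 and 21.0 in SSC.4, the tightest set of SSC values among the members that changed. MASC lines held 41.5 to 50.9 FPKM (median 44.4), far above all SSC lines. The rise was 0.95 ± 0.06 log2 units (SE; limma adjusted p = 3.8e-06). Arid1b (chr17:4995074-5347656) was at 3.28 FPKM in SSC.1, 4.00 in SSC.2, 5.62 in SSC.3 and 5.02 in SSC.4, and at 2.48 to 5.19 FPKM (median 3.37) in MASC lines, and the groups overlapped. Its difference was -0.26 ± 0.24 log2 units (limma adjusted p = 0.49), and changed sign with quantile normalization (0.03 log2 units).

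Actl6a, which encodes the actin-related subunit of BAF and also belongs to other chromatin complexes, lies at chr3:32607468-32625893. Actl6a was at 52.6 FPKM in SSC.1, 43.0 in SSC.2, 54.8 in SSC.3 and 36.9 in SSC.4. The MASC lines lay between 90.6 and 111 FPKM (median 98.8), with every line above every SSC line. It rose by 1.09 ± 0.10 log2 units (SE; limma adjusted p = 4.8e-05), which is 2.13-fold on the FPKM + 1 scale. Smarce1 (chr11:99070362-99092331), the HMG-box subunit, was at 55.0 FPKM in SSC.1, 26.7 in SSC.2, 50.3 in SSC.3 and 39.4 in SSC.4, and at 39.8 to 47.4 FPKM (median 43.7) in MASC lines. The MASC values fell within the range of the SSC lines, and the difference was 0.07 ± 0.17 log2 units (limma adjusted p = 0.85). Without SSC.2 it was -0.13 log2 units.

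Of the 6 members called between MASCs and SSCs, 4 were also called when ESCs were compared with SSCs. Both comparisons share the 4 SSC lines, so these values are not independent of those above. Smarcd3 (-2.58 ± 0.40 log2 units, limma adjusted p = 0.0015) and Smarca2 (-1.68 ± 0.44, 0.023) were lower in the 2 ESC lines, and Arid1a (0.91 ± 0.08, 6.1e-05) and Actl6a (1.07 ± 0.14, 0.00061) were higher. Hence 2 members were called lower against 13.8% of all transcripts and 2 higher against 7.67%. For expressed transcripts in the same fit these shares were 21.1% and 11.9%. Smarcd1 did not pass the test (0.41 ± 0.21 log2 units, limma adjusted p = 0.21). Smarcc2 missed the threshold (-0.98 ± 0.34 log2 units, limma adjusted p = 0.070) and passed it without SSC.1 (0.031) or SSC.4 (0.041). The Smarca2 call was lost without SSC.4 (limma adjusted p = 0.052), ESC.1 (0.058) or ESC.2 (0.18), and with quantile normalization (0.050). Levels in the ESC lines were 1.98 and 2.43 FPKM for Smarcd3, 1.19 and 0.456 FPKM for Smarca2 and 4.51 and 3.37 FPKM for Smarcc2.

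Between MASCs and ESCs, 0 of the 10 members passed the test with limma, and 0 had an unadjusted p under 0.05. Over all transcripts 0.00306% were called higher and 0.0276% lower in MASCs. The differences ranged from -0.11 log2 units for Smarca4 (95% interval -0.89 to 0.67) to 0.28 for Smarce1 (-0.21 to 0.77). Smarce1 was the only member without overlap, at 39.8 to 47.4 FPKM in MASC lines and 34.8 and 36.4 FPKM in ESC lines. Its unadjusted exact permutation p was 0.036, the smallest that 6 and 2 lines allow. The share of all transcripts separated in this way was not counted. The narrowest interval was that of Arid1a, from -0.13 to 0.20 log2 units, and the interval of Smarca2, from -0.77 to 1.10, still admits more than a doubling. With 2 ESC lines and a spread that is shared with the SSC lines in the fit, the intervals stayed wide for several members. Among these were the well expressed Smarca4 and Smarce1. For Smarce1 the SD of log2(FPKM + 1) was 0.45 in SSC lines, 0.11 in MASC lines and 0.047 in ESC lines.

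**Figure D2:**
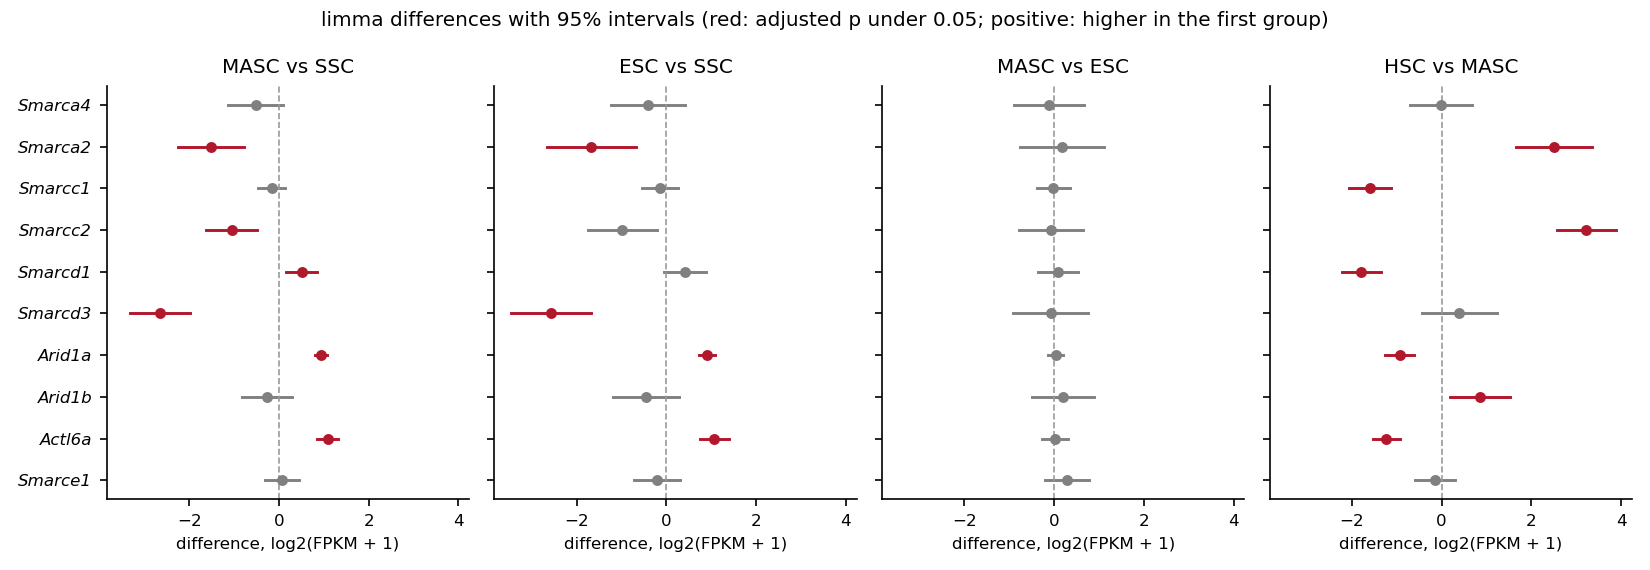
Differences in log2(FPKM + 1) with 95% intervals from limma for the 10 members in 4 comparisons, red where the adjusted p was under 0.05 and positive where the first group was higher. The intervals of MASC vs ESC all include 0, and Smarcc2 and Smarca2 lie to the left in MASC vs SSC and to the right in HSC vs MASC.

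Some members differed between the Oct4-GFP lines and the other MASC and ESC lines. Smarca4 was at 21.6 to 23.9 FPKM in the 3 Oct4-GFP lines (MASC.1, MASC.2 and ESC.1) and at 10.8 to 16.9 FPKM in the other 5. Smarcd1 was at 52.1 to 55.5 FPKM in the Oct4-GFP lines and at 67.3 to 70.0 FPKM in the others, and Arid1b at 3.99 to 5.19 against 1.57 to 3.52 FPKM. These 3 of 10 members did not overlap between the strains, against 20.9% of all transcripts in either direction, so the share of members was close to the background. The same 3 Oct4-GFP lines had the highest fibroblast marker sums among MASC and ESC lines, 110 to 929 FPKM against 20.8 to 60.3 FPKM, and the part of these cells in the differences was not tested. The SSC lines did not show the same split. In Oct4-GFP SSC.1 and SSC.2 Smarca4 was at 38.0 and 19.1 FPKM, against 30.0 and 16.6 FPKM in SSC.3 and SSC.4. Smarcd1 was at 58.5 and 33.2 against 48.8 and 42.3 FPKM. Arid1b lay the other way, at 3.28 and 4.00 against 5.62 and 5.02 FPKM.

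**Figure D3:**
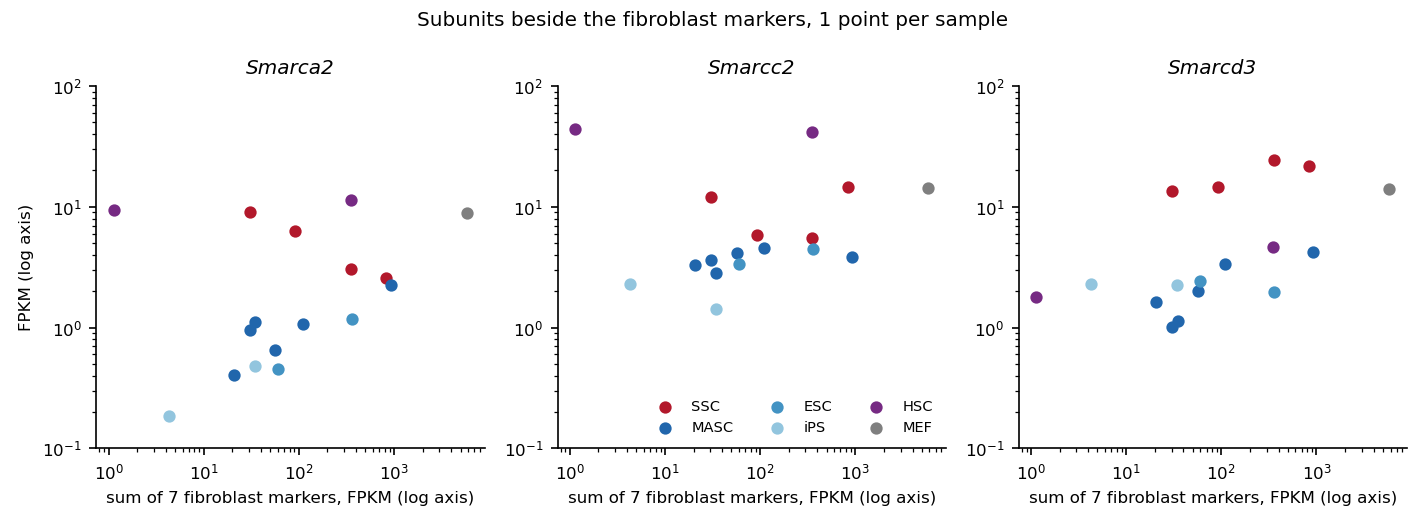
FPKM of Smarca2, Smarcc2 and Smarcd3 against the summed FPKM of 7 fibroblast markers, both on log axes, 1 point per sample coloured by cell type. SSC.2, at a marker sum of 30.5 FPKM, has 9.06 FPKM of Smarca2, the highest value of the SSC lines, and MASC.1, at 929 FPKM, has the highest Smarca2 and Smarcd3 values of the MASC lines.

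Feeder fibroblasts bear on Smarca2, Smarcc2 and Smarcd3, since the MEF sample held 8.82, 14.3 and 13.9 FPKM of them. The fibroblast marker sum of SSC.2 was 0.523% and that of SSC.4 1.57% of the sum in the MEF sample, while Smarca2 was at 9.06 and 6.29 FPKM in these 2 lines, above SSC.1 and SSC.3 with 6.09% and 14.3%. Smarcd3 went the other way, with 24.3 and 21.8 FPKM in SSC.1 and SSC.3 against 13.6 and 14.6 FPKM in SSC.2 and SSC.4, and the Smarcc2 transcript used was highest in SSC.3 (14.5 FPKM). The marker sums overlapped widely between SSC lines (30.5 to 832 FPKM) and MASC lines (20.8 to 929 FPKM), and the part of feeder cells in the differences was not tested. Without SSC.1, SSC.3, MASC.1 and ESC.1, the same 6 members were called between MASCs and SSCs, with -2.23 ± 0.21 log2 units for Smarca2, -1.01 ± 0.28 for Smarcc2 and -2.48 ± 0.32 for Smarcd3. The limma adjusted p of these 3 were 0.0016, 0.049 and 0.0041, with a single ESC line that is assumed to vary like the other groups.

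The next question was the balance within paralogue pairs, taken as log2(FPKM + 1) of the first gene minus that of the second in each sample and compared by an exact two-sided permutation test of the difference of means. There were 12 such tests, 3 pairs in 4 comparisons, with p adjusted over them. With 6 and 4 lines the smallest p is 0.00476, which becomes 0.057 when adjusted alone over 12, so a single ratio could not pass 0.05. None of the 12 ratios reached an adjusted p of 0.05.

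The Smarcd1 to Smarcd3 balance moved the most between SSCs and MASCs. In FPKM, Smarcd1 exceeded Smarcd3 by 2.23 to 2.89 times in SSC lines and by 13.2 to 66.1 times in MASC lines (median 38.8). The log2 ratio was 1.26 ± 0.15 (SD, n = 4) in SSCs and 4.42 ± 0.70 (SD, n = 6) in MASCs, a difference of 3.16 with p = 0.00476 in the exact permutation test and 0.057 after adjustment. All 6 MASC lines lay above all 4 SSC lines. In ESCs the ratio was 4.26 ± 0.14 (SD, n = 2), and the exact permutation p against SSCs was 0.067, the smallest that 2 and 4 lines allow. Smarcd2, the remaining gene of the family, was also measured, and the transcript used was lower in MASCs than in SSCs (-0.82 ± 0.26 log2 units, limma adjusted p = 0.035). Its other transcript was at 7.37 to 27.5 FPKM in SSC lines and 11.6 to 18.7 FPKM in MASC lines, with overlap. Of the FPKM summed over all transcripts of Smarcd1, Smarcd2 and Smarcd3, Smarcd3 held 14.9% to 19.6% in SSC lines, 1.05% to 4.69% in MASC lines and 26.6% in the MEF sample. Smarcd1 held 36.8% to 45.5% in SSC lines and 61.9% to 70.2% in MASC lines. The share of Smarcd2 was 35.6% to 48.1% in SSC lines and 28.1% to 33.4% in MASC lines, so both other genes lost share to Smarcd1. The family sum itself overlapped between SSC lines (90.2 to 129 FPKM) and MASC lines (83.1 to 103 FPKM).

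The other pairs moved less. Smarca4 exceeded Smarca2 by 2.11 to 12.5 times in SSC lines and by 9.60 to 41.1 times in MASC lines, with overlap. The log2 ratio was 2.16 ± 1.19 (SD, n = 4) against 3.15 ± 0.45 (SD, n = 6), a difference of 0.99 that the exact permutation test did not separate (p = 0.10, adjusted 0.18). The added 1 shrinks such a ratio where the second gene is near or under 1 FPKM, as Smarca2 was in most MASC lines. MASC.5, at 41.1 times in FPKM, had a log2 ratio of 3.66. With the sums over transcripts the difference was 1.14 (p = 0.086 in the exact permutation test). Leaving out SSC.2 gave 0.60, since SSC.2 and SSC.4 had the ratios nearest to balance, and without the 4 lines of high fibroblast markers the difference was 2.09 and the groups no longer overlapped. Smarcc1 exceeded Smarcc2 by 4.48 to 14.0 times in SSC lines and by 9.60 to 20.6 times in MASC lines. Its log2 ratio was 2.79 ± 0.75 (SD, n = 4) against 3.68 ± 0.38 (SD, n = 6), with an exact permutation p of 0.033 (adjusted 0.086). The difference of 0.89 became 0.62 with sums over transcripts (exact permutation p = 0.12) and 0.49 with quantile normalization (0.25). Between MASCs and ESCs the 3 ratios differed by -0.28, 0.05 and 0.17 log2 units for the Smarca, Smarcc and Smarcd pairs, with exact permutation p of 0.54, 0.89 and 0.79 (n = 6 and 2).

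**Figure D4:**
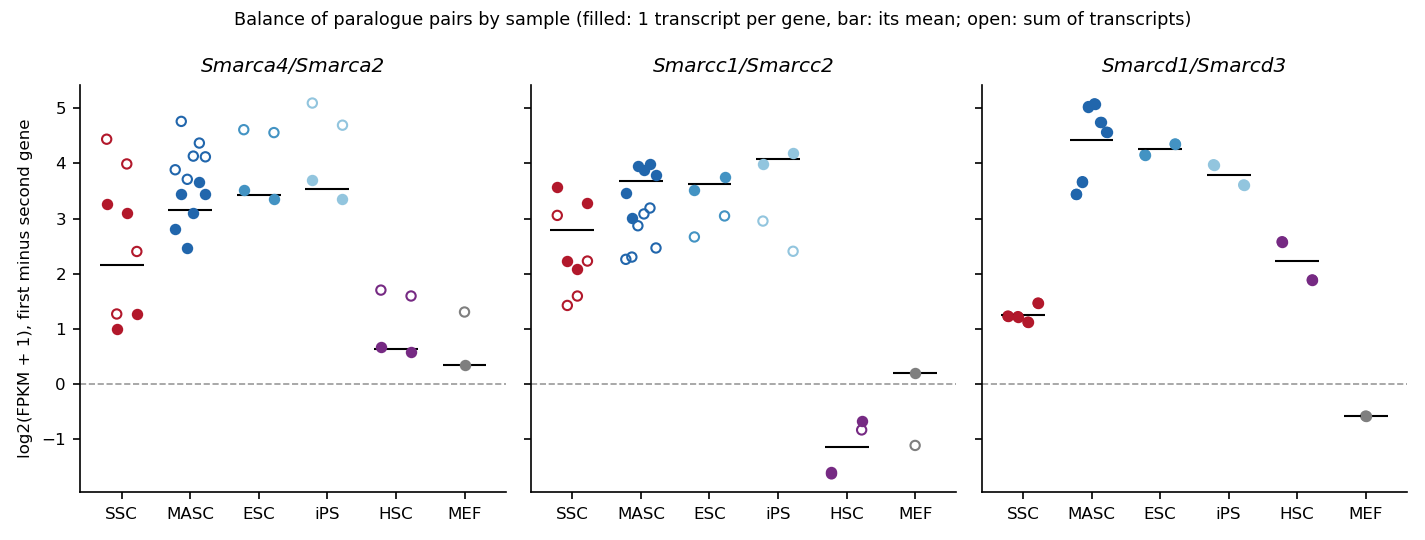
Balance of the 3 paralogue pairs, as the difference in log2(FPKM + 1) of the first minus the second gene, for each of the 17 samples. Filled points use 1 transcript per gene with a bar at the group mean, open points the sum of transcripts. The Smarcd pair separates SSC lines (mean 1.26) from MASC lines (4.42), and the Smarcc pair lies below 0 in both HSC cultures.

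HSCs gave a somatic stem cell for comparison. Against MASCs, in a fit over all 17 samples, Smarcc2, Smarca2 and Arid1b were higher in HSCs and Smarcd1, Smarcc1, Actl6a and Arid1a lower. These 3 higher and 4 lower calls stand against 14.8% and 16.8% of all transcripts. Of transcripts that reached 1 FPKM in 2 or more of the 17 samples, 19.6% were called higher and 25.9% lower in the same fit. Both HSC cultures were C57Bl/6J and no MASC line was, so a correction for strain rests on the single C57Bl/6J SSC line. With such a strain block 5 of the 7 members were still called, all but Arid1a and Arid1b. Smarcc2 was at 43.8 and 41.4 FPKM in the 2 HSC cultures and 3.22 ± 0.30 log2 units above MASCs (limma adjusted p = 6.6e-06). This transcript was at no more than 14.5 FPKM in any other sample, but the sum over the 3 transcripts was 44.7 and 46.4 FPKM in HSCs against 37.0 FPKM in the MEF sample. Smarca2 was at 9.34 and 11.5 FPKM, 2.50 ± 0.38 log2 units above MASCs (limma adjusted p = 0.00035). Smarcd1 was at 15.7 and 20.0 FPKM and Smarcc1 at 13.8 and 25.7 FPKM, both below all lines of the other stem cell types. They differed from MASCs by -1.79 ± 0.20 and -1.60 ± 0.21 log2 units (limma adjusted p = 2.9e-05 and 0.00011). Actl6a was at 44.3 and 39.2 FPKM (-1.24 ± 0.14, limma adjusted p = 2.6e-05). Arid1a was at 17.4 and 30.2 FPKM (-0.94 ± 0.15 log2 units, limma adjusted p = 0.00040), and its call was lost with a strain block (0.071). Since the 2 cultures differed, the Arid1a difference was -0.56 log2 units without HSC.1 and -1.32 without HSC.2.

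The Arid1b difference was at the threshold. Its levels were 5.56 and 9.11 FPKM and its difference 0.86 ± 0.30 log2 units (limma adjusted p = 0.049). It was lost when any of MASC.2 to MASC.6 was left out (limma adjusted p 0.059 to 0.083), without HSC.2 (0.54 log2 units, 0.41), with a pseudocount of 0.1 (0.058) and with a strain block (0.77). Smarcd3, at 1.79 and 4.67 FPKM, did not pass the test (0.39 ± 0.38 log2 units, limma adjusted p = 0.52), with a sign that changed without HSC.2 (-0.12). Smarca4 (-0.02 ± 0.32) and Smarce1 (-0.14 ± 0.20) did not pass it either. HSC.2 held fibroblast markers at a sum of 351 FPKM, against 1.14 FPKM in HSC.1, and the 3 endothelial markers (Cdh5, Tie1, Emcn) summed to 15.4 against 0.340 FPKM. The part of such cells in the differences was not tested. Without HSC.2 and the other 4 lines with high fibroblast markers, Smarcc2 and Smarca2 were 3.27 and 2.50 log2 units above MASCs and Arid1b was not called (limma adjusted p = 0.051).

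HSCs and SSCs shared some of these levels and not others. Smarcc2 was higher in HSCs than in SSCs (2.17 ± 0.32 log2 units, limma adjusted p = 0.00022), and Smarcc1 (-1.76 ± 0.22, 7.7e-05), Smarcd1 (-1.29 ± 0.21, 0.00052) and Smarcd3 (-2.26 ± 0.40, 0.00094) were lower. This is 1 member called higher against 12.7% and 3 called lower against 20.7% of all transcripts. For expressed transcripts in the same fit these shares were 17.4% and 30%. Smarca2 did not pass the test (0.99 ± 0.41 log2 units, limma adjusted p = 0.084), but did without SSC.2 (0.020). It also passed with quantile normalization (limma adjusted p = 0.026), with a strain block (0.038) and with the expression filter (0.0499). Arid1b (0.59 ± 0.32 log2 units, limma adjusted p = 0.19) passed only with quantile normalization (0.026) among the changes of setting. Arid1a differed by 0.01 ± 0.16 log2 units, and was called higher without HSC.1 (0.39 log2 units, limma adjusted p = 0.012) and lower without HSC.2 (-0.37, 0.016), since the 2 cultures lay on either side of the SSC lines.

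In HSCs Smarcc2 thus exceeded Smarcc1. Smarcc1 was at 0.315 and 0.621 times the FPKM of Smarcc2 in the 2 cultures, compared with 9.60 to 20.6 times in MASC lines, and Smarcc2 held 61.7% to 76.0% of the pair. The MEF sample was near balance with 46.4% for Smarcc2 by single transcripts and 69.0% by sums. The log2 ratio of the Smarcc pair was 4.81 lower in HSCs than in MASCs, that of the Smarca pair 2.52 lower and that of the Smarcd pair 2.19 lower. Each had an exact permutation p of 0.036, the smallest that 6 and 2 lines allow, and an adjusted p of 0.086. Smarca2 held 37.5% to 39.3% of the Smarca pair in HSCs, 7.39% to 32.1% in SSC lines, 2.37% to 9.43% in MASC lines and 1.27% to 3.28% in iPS lines. These shares of Smarca2 become 22.5% to 23.9%, 3.59% to 28.5%, 2.12% to 5.16% and 0.771% to 1.78% when all transcripts are summed.

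**Figure D5:**
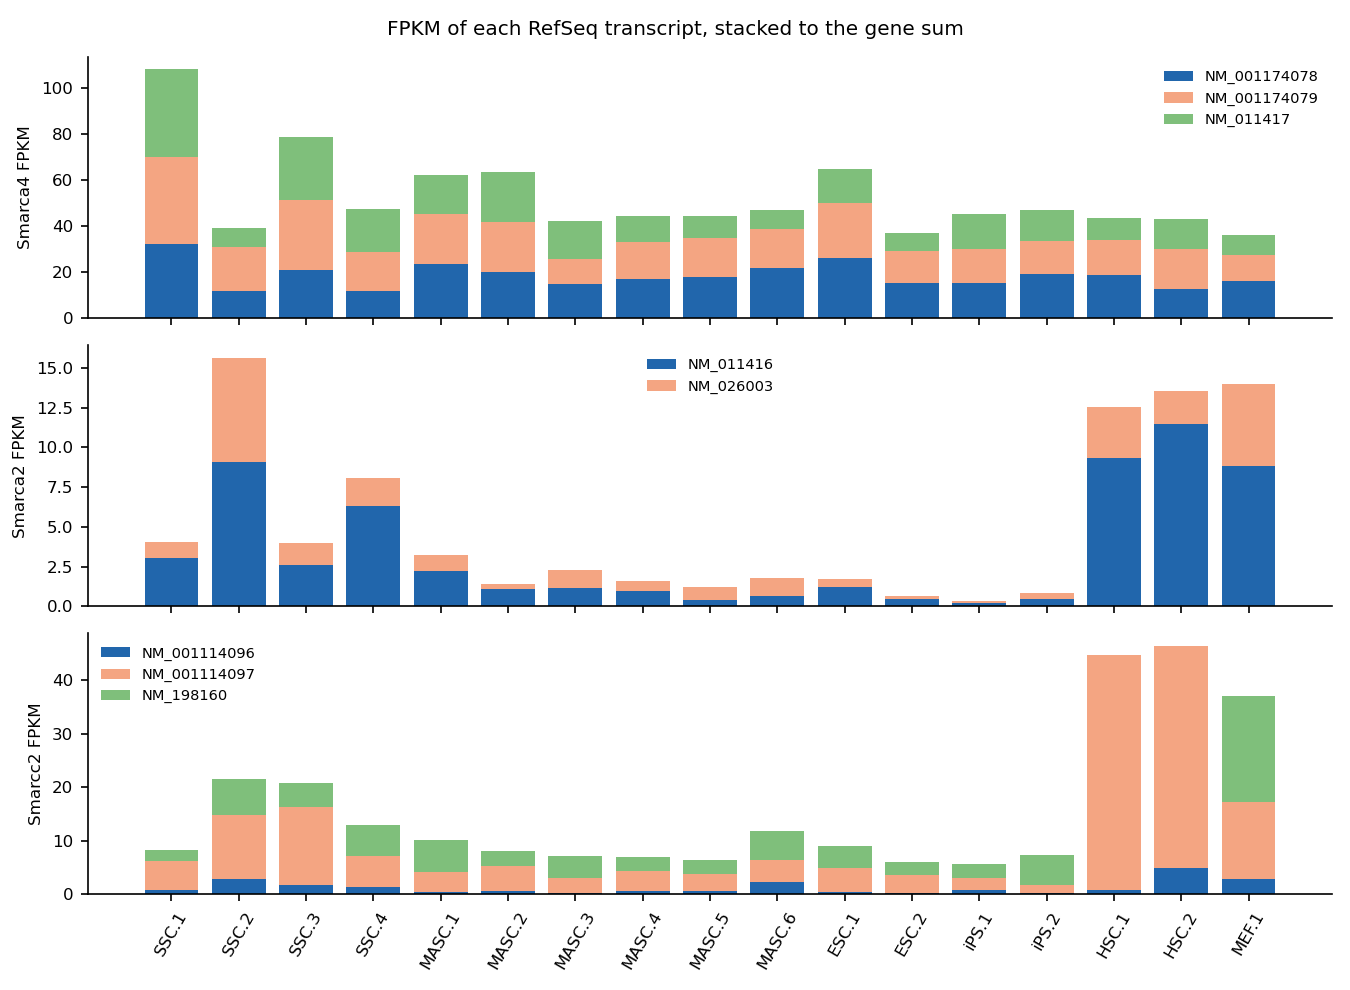
FPKM of each RefSeq transcript of Smarca4, Smarca2 and Smarcc2 in the 17 samples, stacked to the sum for the gene. In both HSC cultures nearly all of Smarcc2 is NM_001114097, whereas the MEF sample has more NM_198160 (19.7 FPKM) than NM_001114097 (14.3 FPKM).

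The transcripts of Smarcc2 also changed their shares. NM_001114097 made up 98.0% and 89.2% of the Smarcc2 sum in the HSC cultures, where NM_198160 was at no more than 0.0300 FPKM with an upper confidence bound of at most 0.0796 FPKM. In MASC lines NM_001114097 held 34.9% to 56.5% and NM_198160 34.8% to 58.6%, and in the MEF sample they held 38.8% and 53.3%. These shares are estimates that Cufflinks made by dividing shared reads among overlapping transcripts, and they had no test here. The 3 transcripts of Smarca4 showed no such extreme, with each between 17.8% and 48.7% of the sum in every sample.

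The iPS lines and the MEF sample were not tested. Both iPS lines had less of the Smarcc2 transcript used (2.28 and 1.43 FPKM) than any other sample, but by the sum over transcripts (5.68 and 7.40 FPKM) they overlapped the MASC lines. Smarca2 was at 0.185 and 0.481 FPKM and Smarcd3 at 2.29 and 2.24 FPKM, with Smarcd3 within the MASC range. Arid1a was at 32.1 and 30.8 FPKM, between the SSC and the MASC lines, and Actl6a at 103 and 81.2 FPKM. The MEF sample had the lowest Smarcd1 (9.01 FPKM), Arid1a (12.2 FPKM) and Actl6a (18.9 FPKM) of all samples, and more Smarcd3 than Smarcd1. By mean FPKM, Smarca2 was ordered HSC, MEF, SSC, MASC, ESC and iPS, with overlapping ranges between MEF and SSC and from MASC to iPS. Smarcc2 was ordered HSC, MEF, SSC, ESC, MASC and iPS, with overlap between MEF and SSC and between ESC and MASC. By sums over transcripts the MEF sample lay above all SSC lines, and SSC lines (8.31 to 21.5 FPKM), ESC lines (6.08 to 8.94 FPKM), MASC lines (6.42 to 11.8 FPKM) and iPS lines overlapped in part. Smarcd3 was ordered SSC, MEF, HSC, iPS, MASC and ESC, with a gap between MEF and HSC but none among the last 4.

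The 3 genes most like each falling member were found by Pearson's r of log2(FPKM + 1) over the 17 samples, among 17140 transcripts with a mean FPKM of at least 1. For Smarca2 they included Plxnd1 (r = 0.96) and Armcx3 (0.95). For Smarcc2 they were Fam63b (r = 0.96), Selplg (0.96) and Cux1 (0.96), of which Selplg had a mean of 91.6 FPKM in HSCs and 0.300 FPKM in MASCs. Smarcd3 was most like Ggt7 (r = 0.97), Mfhas1 (0.97) and Psap (0.96), with Psap at a mean of 51.0 FPKM in SSCs and 5.88 FPKM in MASCs. The samples share cell types and feeders, so these values describe the pattern only.

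Another 21 genes of the BAF family, including the shared core subunit Smarcb1 and subunits of the PBAF and non-canonical forms, were measured for context. Between MASCs and SSCs 4 of them were called higher, 5 lower and 12 were not called, with a median difference of -0.13 log2 units. As shares these are 19% and 23.8%, near the 17.9% and 27.9% of expressed transcripts in the same fit. Not all of these genes were expressed, and the called transcripts of Bcl11a and Dpf3 stayed under 1 FPKM in all 12 lines. Another transcript of Bcl11a was at 1.36 FPKM in SSC.2, so its call holds for the transcript used only. Ss18, whose product is a dedicated BAF subunit, rose from 20.3 to 24.6 FPKM in SSC lines to 41.1 to 55.7 FPKM in MASC lines (1.09 ± 0.08 log2 units, limma adjusted p = 1.0e-05). Its paralogue Ss18l1, known from BAF complexes of neurons, fell by 1.04 log2 units (SE 0.08, limma adjusted p = 1.3e-05), from 4.52 to 5.73 FPKM down to 1.72 to 2.39 FPKM. Neither pair of groups overlapped. Brd7, a PBAF subunit, fell by 1.03 log2 units (SE 0.15, limma adjusted p = 0.00056). Actb, the actin of BAF complexes and of the cytoskeleton, rose by 1.37 ± 0.20 log2 units (limma adjusted p = 0.00056), which was 0.60 with quantile normalization. Among other remodeller families, 1 of 13 ISWI genes was called higher and 2 lower in MASCs, 5 and 5 of 17 CHD and NuRD genes, and 5 and 3 of 11 INO80 genes, against the same 17.9% and 27.9% of expressed transcripts.

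Between HSCs and MASCs 2 of the 21 genes were called higher in HSCs, 4 lower and 15 were not called. These shares of 9.52% and 19% stand against 14.8% and 16.8% of all transcripts and 19.6% and 25.9% of expressed transcripts in the same fit. Dpf1, which encodes a PHD-finger subunit best known from neuronal BAF, was at 0.399 and 0.591 FPKM in HSCs and at 5.54 to 7.49 FPKM in MASC lines (-2.29 ± 0.29 log2 units, limma adjusted p = 8.6e-05). Ss18 was at 20.6 and 20.9 FPKM in HSCs, close to the SSC lines and below all MASC lines (-1.21 ± 0.10 log2 units, limma adjusted p = 1.7e-06). Smarcd2, a SMARCD form known for its role in granulocytes, has 2 transcripts. The one used was at 30.5 and 28.5 FPKM against 10.2 to 17.6 FPKM in MASC lines (1.01 ± 0.30 log2 units, limma adjusted p = 0.020), but lost its call without HSC.1 (0.11) or HSC.2 (0.089). The other Smarcd2 transcript was at 20.4 and 26.4 FPKM in HSCs and at 11.6 to 18.7 FPKM in MASC lines. That transcript was not tested alone. Gltscr1l, of the non-canonical form, differed by -1.0 ± 0.33 log2 units (limma adjusted p = 0.038). Its call was lost without any one of MASC.3, MASC.4, MASC.5, MASC.6, HSC.1 or HSC.2 (limma adjusted p 0.060 to 0.25). Without the 5 lines with high fibroblast markers, neither Smarcd2 (limma adjusted p = 0.086) nor Gltscr1l (0.096) was called, and both calls were also lost with a strain block (0.43 and 0.67). With both of its transcripts summed, Smarcd2 held 69.0% and 74.5% of the summed FPKM of the 3 SMARCD genes in HSCs, against 28.1% to 33.4% in MASC lines.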

How the data were processed

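RNA-seq of 17 mouse samples was used. The authors aligned reads to mm9 with TopHat2 2.0.11, removed PCR duplicates and reads with several alignments, and ran Cufflinks with upper-quartile and GC normalization. The deposited values are an FPKM per transcript with its confidence bounds and a coverage signal. Of 33262 rows per file, the 32661 with a plain RefSeq identifier were joined by identifier, and 601 further loci were left out. Groups came from the sample labels.

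Members and gene lists were chosen with earlier results of these data known. FPKM was used as log2(FPKM + 1) without further normalization. limma 3.58.1 in R 4.3.3 (lmFit, eBayes without trend) was fitted to the 12 SSC, MASC and ESC lines, or to all 17 samples for HSC comparisons, and was tested on simulated data. A call is a Benjamini-Hochberg adjusted p under 0.05. Paralogue ratios were compared by exact permutation. P-values measure the spread between lines and treat lines of the same strain as independent. The paper states that MASC and ESC lines were subcloned. Whether lines of the same strain share an origin is not known here. The members and the genes of other BAF-family lists with a log2 difference of at least 1 were named. Alternatives were a pseudocount of 0.1, an expression filter, quantile normalization, eBayes with trend and robust estimation, sums over transcripts, other samples, strain and replicate blocks, size thresholds, each line left out and, chosen after seeing the data, the 5 lines with a fibroblast marker sum over 300 FPKM left out. No 2 files agreed above r = 0.984. One of the genes most like Smarca2 is not reported here.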

Additional observations from a re-analysis of the deposited data

How the results depend on the processing

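The counts of members called were within 1.5 times of the values given under most alternatives. Asking for a change of 2 or more log2 units and an unadjusted p under 0.05 left 1 member in MASC vs SSC, 1 in ESC vs SSC, 2 in HSC vs MASC and 2 in HSC vs SSC, and 0 and 1 of the other BAF-family genes in MASC vs SSC and HSC vs MASC. A minimum change of 1 log2 unit left 4 of the other BAF-family genes in MASC vs SSC, and a strain block 2 of them in HSC vs MASC. SSC and MASC lines share replicate numbers, but no source says that they pair lines, and the deviations of same-numbered lines correlated at 0.19, -0.23, -0.22 and 0.14. With a replicate block, 3 members were called in MASC vs SSC in place of 6 (Smarcd3, Arid1a and Actl6a). In the replicate block the paralogue ratios differed by 0.79, 0.78 and 3.04 for the Smarca, Smarcc and Smarcd pairs, with exact sign-flip p of 0.50, 0.25 and 0.125, the last being the smallest that 4 pairs allow.

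The median difference of the members in MASC vs SSC moved to -0.093 without the lines of high fibroblast markers. The Smarcc1/Smarcc2 ratio between MASCs and ESCs changed sign with sums over transcripts (-0.16), without the lines of high fibroblast markers (-0.023) and with single lines left out (-0.064 to 0.18). Other sign changes were those of differences that had not passed the test, namely Arid1b in MASC vs SSC with quantile normalization (0.033), Smarcd3 in HSC vs MASC with a strain block (-0.11), and, with single lines left out, Smarce1 in MASC vs SSC (-0.13 to 0.21) and Smarca4 (-0.14 to 0.069) and Smarcd3 (-0.12 to 0.90) in HSC vs MASC. The cause was not tested for any of these. Smarca2 was under 1 FPKM in several lines. Its Cufflinks confidence bounds were, for example, 0.315 to 0.499 FPKM in MASC.5 and 0.135 to 0.235 FPKM in iPS.1. These bounds were not used in the tests.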
